A study of Mus musculus with 3 samples.

Results

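The growth arrest and immediate early genes described here are 10 genes of mouse liver: Cdkn1a, Gadd45a, Gadd45b, Gadd45g, Ccnd1, Myc, Jun, Fos, Egr1 and Atf3. They are a list of 15 probe sets given by their IDs. The rule holds no threshold on a measured value, but the genes were picked with earlier results of these data known. A probe set is a group of short oligonucleotides that reads 1 transcript on an Affymetrix array, and several probe sets can read the same gene. Of the 15, 13 probe sets for 9 genes stand among the 19824 probe sets of the deposited table of log2 ratios, controls aside. The missing 2 are 1421679_a_at for Cdkn1a and 1423100_at, the only probe set for Fos. A deposited table of signals for 45101 probe sets holds all 15. The annotation of the array pairs each of the 15 with the gene named here and with no other gene.

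Livers came from female mice of the inbred strain BALB/c, and RNA of 6 mice was pooled for each of 3 arrays. Young control mice were 10 weeks old and old control mice 50 weeks, both on normal food, and old Chlorella mice were 50 weeks old on food with 2.0% powder of the green alga Chlorella. The series title speaks of mice sensitized to OVA, but the labels of the 3 arrays record no sensitization. Each group is a single pooled array without a replicate, so no test could be made, the number of arrays limits the precision, and a difference of 2-fold or more (1 on the log2 scale) was counted as a rule of size only.

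Immediate early genes are switched on within minutes of a stimulus, without new protein being made first. Jun and Fos are subunits of the transcription factor AP-1, Egr1 is a zinc finger factor, Atf3 a stress-induced factor that can pair with Jun, and Myc a factor that drives growth and ribosome production. In liver this group is known for its rapid induction after partial hepatectomy, before hepatocytes re-enter the cell cycle. Growth arrest genes act on the opposite side: Cdkn1a (p21) inhibits cyclin-dependent kinases and is a target of p53, and the Gadd45 proteins are small stress sensors that act on cell cycle and MAP kinase signalling. Cyclin D1, the product of Ccnd1, carries cells through G1 by activating Cdk4 and Cdk6.

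The mean linear signal without the lowest and highest 2% of probe sets was 500.0 on each of the 3 arrays, so the deposited values are scaled to a common mean. Differences between arrays in the ratio table equalled those in the signal table within 0.001 (log2), so both tables give the same difference wherever both have values. Cells of the ratio table are empty for some probe sets, for a reason not given in the sources used here. Their median log2 signal was 5.63 against 9.10 for filled cells on young control, 6.45 against 8.95 on old control and 6.71 against 8.97 on old Chlorella. Bacterial control RNAs gave more signal on old control than on the young array, by a median of 0.456 (log2) for the hybridization controls and 0.749 for the poly-A controls. Scaling to them moved the median age difference of all probe sets from -0.114 to -0.52 and -0.865, and that by diet from 0.003 to 0.17 and 0.293. Differences were therefore recomputed under 5 other scalings: array medians at 0, quantile normalization of ratios or of signals, and either kind of bacterial control. A turned sign is stated beside each member value it concerns. As a check of the tissue, all 8 hepatocyte genes looked up had ratios on the 3 arrays, with log2 signals of albumin between 15.32 and 15.79.

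Sequences before the transcription start are shown for the members whose signals differed by 2-fold or more between the old arrays, and for Cdkn1a, the member kinase inhibitor. They are the 250 bases before a start in the RefSeq promoter table (GRCm38.p6), written 5′ to 3′ on the strand of the gene. An entry was found for 7 of the 10 genes. Capitals mark matches, on either strand, to TGANNTCA (bound by ATF and AP-1 factors), TGACTCA (AP-1), TGACGT (core of the cAMP response element), CACGTG (E-box, bound by Myc and other factors) or TATAAA (a core promoter box), or to the MEF2 element, the p53 element with at most 1 letter off, or the CArG box bound by the serum response factor. TGANNTCA and TGACGT can overlap. The Jun window lies at chr4:95052223-95052472 on the minus strand, Gadd45b at chr10:80929841-80930090 on the plus strand, Gadd45g at chr13:51846425-51846674 on the plus strand, and the upstream start of Cdkn1a at chr17:29090729-29090978 on the plus strand.
Jun: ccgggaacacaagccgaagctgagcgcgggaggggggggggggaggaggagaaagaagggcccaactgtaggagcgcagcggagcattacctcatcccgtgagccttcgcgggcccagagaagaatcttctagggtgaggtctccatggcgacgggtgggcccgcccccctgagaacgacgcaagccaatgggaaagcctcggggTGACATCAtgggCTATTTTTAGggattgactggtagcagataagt
Gadd45b: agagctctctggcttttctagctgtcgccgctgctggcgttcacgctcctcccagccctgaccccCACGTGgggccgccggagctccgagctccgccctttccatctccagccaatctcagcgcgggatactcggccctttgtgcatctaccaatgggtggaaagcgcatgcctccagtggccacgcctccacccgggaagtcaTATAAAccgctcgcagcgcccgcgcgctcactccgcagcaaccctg
Gadd45g: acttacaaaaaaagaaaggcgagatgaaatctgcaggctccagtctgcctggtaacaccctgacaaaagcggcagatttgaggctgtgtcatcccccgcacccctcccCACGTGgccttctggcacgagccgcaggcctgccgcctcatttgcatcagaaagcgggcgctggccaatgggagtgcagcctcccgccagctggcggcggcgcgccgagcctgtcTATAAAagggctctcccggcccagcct
Cdkn1a: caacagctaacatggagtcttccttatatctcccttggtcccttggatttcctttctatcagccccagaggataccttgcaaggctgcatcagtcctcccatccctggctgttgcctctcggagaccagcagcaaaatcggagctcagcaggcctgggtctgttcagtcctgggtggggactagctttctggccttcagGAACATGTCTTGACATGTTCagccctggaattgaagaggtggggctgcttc

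Jun had TGACATCA, which is a match to TGANNTCA, beginning 45 bases before the start. The pattern TGANNTCA occurred in 11.9% of 32851 promoter windows of the same length. A MEF2 element, bound by MEF2 factors, began 33 bases before the Jun start, and 0.508% of all windows held one. Gadd45b and Gadd45g each had CACGTG and TATAAA, which occurred in 6.02% and 12.4% of all windows. The E-box began 185 bases before the start in Gadd45b and 142 bases before it in Gadd45g. In the upstream Cdkn1a window a p53 element 1 letter off its consensus began 51 bases before the start, where 0.0761% of all windows had such a match. The second Cdkn1a window and that of Gadd45a held none of these letters, whereas Fos had TGACGT and TATAAA and Atf3 had a MEF2 element and TGACGT on the opposite strand, the latter core present in 6.47% of windows. No TGACTCA and no CArG box lay in any of these 250-base windows, although 4.46% and 1.47% of all windows held them. These matches describe letters and were not tested as sites.

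**Figure D1:**
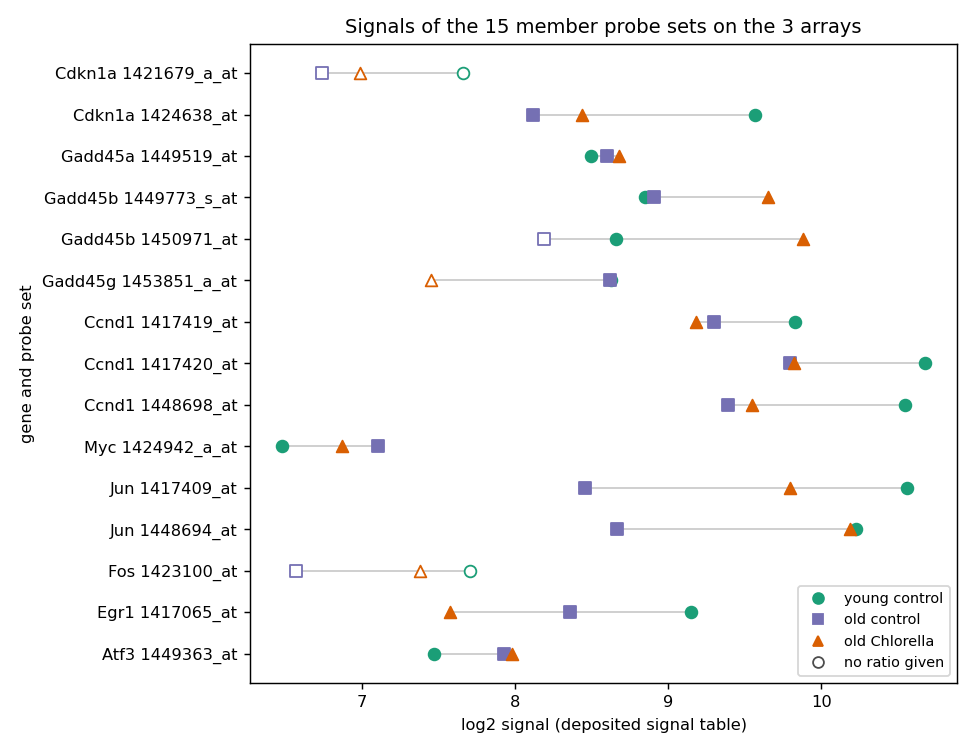
Log2 signal (x axis) of each of the 15 member probe sets (y axis) on the 3 arrays, from the deposited signal table; open markers are arrays for which the ratio table gives no value. Both Jun probe sets are lowest on old control (8.46 and 8.67), and Egr1 is lowest on old Chlorella (7.58).

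Jun, the AP-1 subunit, was low in old control livers and higher in both other groups. Its probe set 1417409_at had a linear signal of 1514 on young control, 352.9 on old control and 891.5 on old Chlorella, and 1448694_at had 1202, 407.8 and 1169 in the same order. Old control was thus the low array on both probe sets, and on the second one old Chlorella and young control had nearly the same signal. By the deposited ratios, the age difference of Jun (old control minus young control) was -2.10 (log2; 4.29-fold lower) on 1417409_at and -1.56 (2.95-fold lower) on 1448694_at. Only 42 of 16667 probe sets had an age difference as low as the first, and 253 one as low as the second, Jun included. Old Chlorella exceeded old control by 1.34 (2.53-fold) and 1.52 (2.87-fold), values that 27 and 13 of 16524 probe sets reached. All 5 other scalings kept these 4 differences past 2-fold in the same direction. By age they ranged from -2.85 to -1.91 and from -2.31 to -1.34, and by diet from 1.33 to 1.81 on the first and up to 2.06 on the second. Against young control, old Chlorella differed by -0.76 on the first probe set and by -0.04 on the second, which turned positive under 3 of 5 scalings.

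Both Jun differences rest on the same old control array, so the age and the diet value are not independent of each other. Among the 15735 probe sets with 3 ratios, 60 (0.381%) lay 2-fold or more below both other arrays on old control, and 2 of these were the Jun probe sets. These livers are mixtures of cells, in which fewer cells of a type and less RNA per cell cannot be told apart.

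Fos, the partner of Jun in AP-1, has no ratio on any array. Its signal was 209.0 on young control, 94.7 on old control and 166.9 on old Chlorella, with old control again the lowest. From these signals the difference was -1.14 (log2) by age and 0.82 by diet, but the value is not counted below.

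Egr1, a zinc finger factor of the early growth response, had a different order. Its signal was 568.3 on young control, 327.8 on old control and 191.7 on old Chlorella, so that it was lower in old than in young livers and lowest with Chlorella. The difference was -0.79 (log2; 1.73-fold) by age and -0.78 (1.71-fold) by diet, neither reaching 2-fold. Only 287 of 16524 probe sets had a diet difference as low. Between old Chlorella and young control it was -1.57 (2.96-fold), as low as in 139 of 16572 probe sets. Each of the 3 values stayed negative under all 5 scalings, with ranges from -1.54 to -0.38 by age, from -1.26 to -0.49 by diet, and from -2.03 to -1.46 for the combined contrast. Jun and Egr1 therefore had opposite signs between the old arrays, under each of the 5 scalings as well.

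Atf3, which represses or activates stress genes depending on its partner, was lowest in young livers. Its signal was 176.9, 244.6 and 252.7 on young control, old control and old Chlorella. The age difference of 0.47 (log2) turned to -0.28 with the poly-A controls at 0, and the diet difference was 0.05. Myc had a signal of 89.0 on young control, 137.7 on old control and 117.1 on old Chlorella. Its age difference of 0.63 (1.55-fold) also turned negative with the poly-A controls at 0, at -0.12, and its diet difference of -0.23 turned to 0.06 there. Neither gene reached 2-fold in any of the 3 comparisons. These arrays do not settle the sign of Myc in any of them, nor that of Atf3 by age. The other Atf3 differences stayed positive under all 5 scalings, but went down to 0.01 by diet and 0.05 in old Chlorella against young control.

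**Figure D2:**
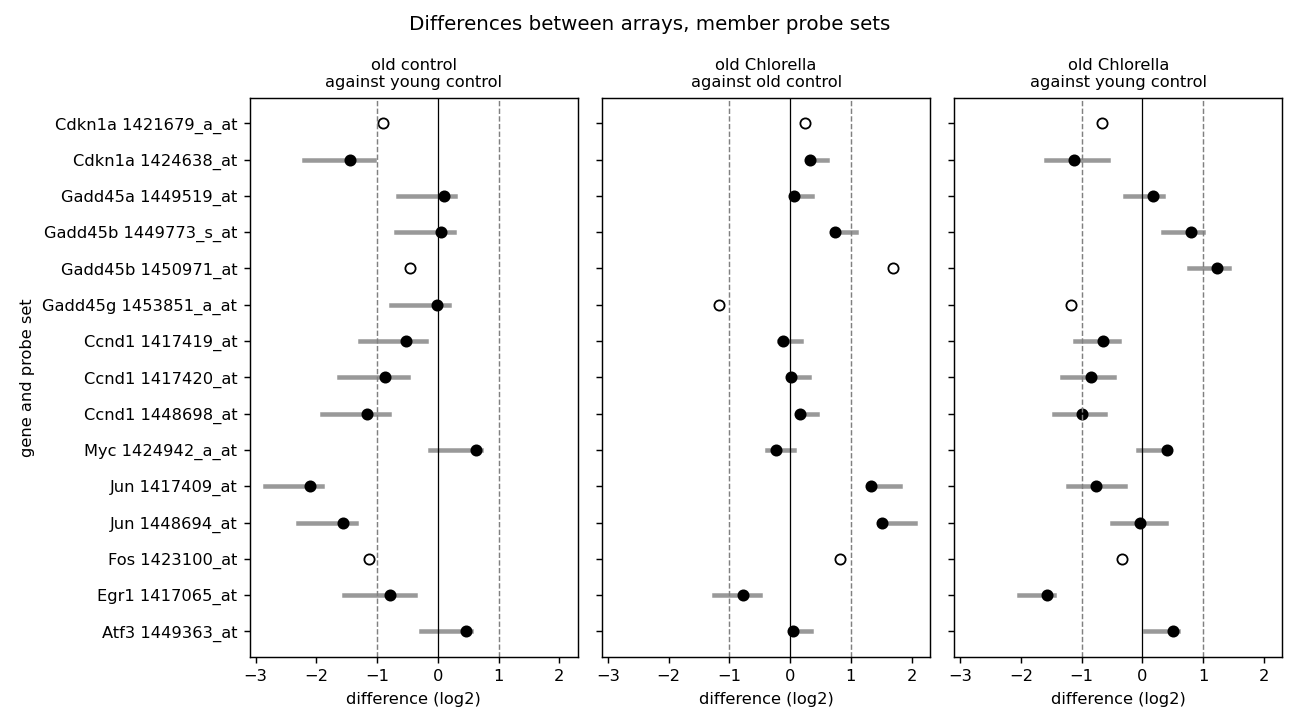
Difference in log2 ratio (x axis) for each member probe set (y axis) in the 3 comparisons. Filled points are deposited ratios, grey bars the range over the other scalings, open points differences of signals where a ratio is missing, and dashed lines mark 2-fold; both Jun probe sets lie beyond -1 by age and beyond 1 by diet.

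Cdkn1a, the kinase inhibitor p21, was lower in both old groups than in young livers. On 1424638_at its signal was 762.6 on young control, 279.1 on old control and 348.2 on old Chlorella. The difference was -1.45 (log2; 2.73-fold) by age and -1.13 (2.19-fold) for old Chlorella against young control. The age difference stayed past 2-fold under all 5 scalings, from -2.20 to -1.05, and the second ranged from -1.59 to -0.56. Between the old arrays Cdkn1a differed by 0.32 (1.25-fold). Probe set 1421679_a_at, which has no ratios, had signals of 201.8, 107.2 and 127.3 in the same order of groups, the same ranking of the 3 arrays. Its signal differences were -0.91 by age and 0.25 by diet (log2).

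Gadd45b, a stress-induced activator of MAP kinase signalling, had its highest signal with Chlorella. Probe set 1449773_s_at had signals of 462.1 on young control, 481.7 on old control and 804.7 on old Chlorella, and 1450971_at had 403.3, 292.5 and 942.3. The control groups thus lay close together on the first probe set and old Chlorella above both. The diet difference of 1449773_s_at was 0.74 (log2; 1.67-fold), a value that 416 of 16524 probe sets (2.52%) reached. It ranged from 0.73 to 1.09 over the other scalings and passed 2-fold in 2 of 5. The second probe set has no ratio on old control. Its signal difference by diet was 1.69 (3.22-fold), and its ratio difference between old Chlorella and young control was 1.22 (2.34-fold). The ratio difference was 0.99 with the hybridization controls at 0 and 0.76 with the poly-A controls at 0, below 2-fold in both, and could be computed under 4 of the other scalings. Another Gadd45b probe set outside the rule, 1420197_at, had signals of 149.7, 145.3 and 254.1 in the order of groups used above, so that old Chlorella was highest on each of the 3. By age, 1449773_s_at differed by 0.06 and turned negative under 3 of 5 scalings.

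Gadd45g, a relative of Gadd45b, went the other way between the old groups. Its signal on 1453851_a_at was 396.0 on young control, 392.2 on old control and 174.6 on old Chlorella, so the control arrays were nearly equal and Chlorella was low. Old Chlorella has no ratio for it. The difference of signals was -1.17 (log2; 2.25-fold) between the old groups, and the age difference was -0.01, with the sign turned under 2 of 4 scalings. Gadd45a, a p53 target in the same family, had signals of 363.0, 389.0 and 409.6, with differences of 0.10 by age, which ranged from -0.65 to 0.28 and turned negative under 2 of 5 scalings, and 0.07 by diet. The 3 Gadd45 genes therefore had no common direction between the old arrays.

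Ccnd1, the gene of cyclin D1, was higher in young livers than in either old group on all 3 probe sets. Probe set 1417419_at had signals of 911.6 on young control, 630.1 on old control and 581.9 on old Chlorella. The values were 1636, 894.4 and 904.3 for 1417420_at and 1498, 671.3 and 749.0 for 1448698_at. Young control was the high array throughout and the old arrays lay close together. By age the differences were -0.53, -0.87 and -1.16 (log2; 1.45-, 1.83- and 2.23-fold), the last of them past 2-fold. All 3 stayed negative under every scaling run, but the last ranged from -1.91 to -0.81. By diet they were -0.11, 0.02 and 0.16, the first turning positive under 2 of 5 scalings. Against young control, old Chlorella differed by -0.65 and -0.85 on the first and second probe set and was lower by exactly the 2-fold limit on the last.

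By age, 12 member probe sets of 9 genes had both ratios, and 4 of them were lower by 2-fold or more on the old control array: both for Jun, 1 for Cdkn1a and 1 for Ccnd1. None was at least 2-fold higher. Over all 16667 probe sets, 18.3% passed 2-fold in either direction with 8.8% lower and 9.55% higher by that much. The median member difference was -0.66 (log2) against -0.114 over all probe sets, and 8 of 12 members lay below 0, as did 55.8% of all. Setting the poly-A controls to 0 put 7 of the 12 past 2-fold, all lower, where 42.6% of all probe sets were, and averaging the probe sets of each gene left 2 of 9 genes, Jun and Cdkn1a. Members of 1 gene share its transcript, so the 12 values are not independent.

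By diet, 11 member probe sets of 8 genes had both ratios, and 2 passed 2-fold, both higher in old Chlorella and both reading Jun. The share over all 16524 probe sets was 1.52%, with 0.841% higher and 0.678% lower. The median member difference was 0.07 (log2) against 0.003 over all. Above 0 lay 8 of 11 members, and 8330 of all 16524 probe sets. Quantile normalized ratios put 4 of 11 past 2-fold, against 5.2% of all probe sets, adding Gadd45b (1.09) as higher and Egr1 (-1.26) as lower. With signals used for all 15 probe sets the count was also 4, where Gadd45b 1450971_at was added as higher and Gadd45g as lower. Both additions rest on an array for which no ratio is given. The share of all probe sets was not computed for this setting.

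Between old Chlorella and young control, where age and diet change together, 12 members of 8 genes had both ratios. Gadd45b 1450971_at was at least 2-fold higher, and Cdkn1a, Ccnd1 1448698_at and Egr1 at least 2-fold lower, so 4 of 12 passed where 15.2% of 16572 probe sets did (8.32% higher and 6.87% lower). The median was -0.34 (log2) against -0.085 over all. This comparison shares an array with each of the other comparisons. Quantile normalized ratios left only Egr1 past 2-fold among the 11 members they cover.

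**Figure D3:**
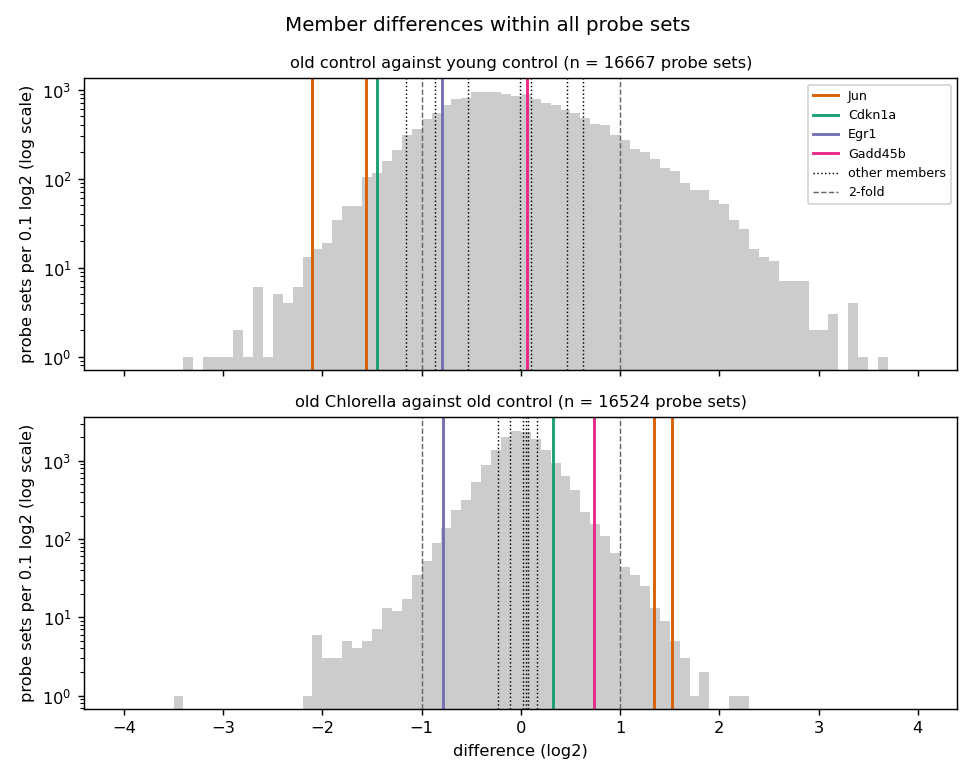
Histogram of the log2 difference (x axis, bins of 0.1) over all probe sets, with the number of probe sets on a log scale (y axis), by age (top) and diet (bottom). Vertical lines are member probe sets and dashed grey lines mark 2-fold; the Jun lines lie in the lower tail by age and in the upper tail by diet.

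The remaining genes of these pathways were looked up through the array annotation, as 5 lists. Their counts past 2-fold stand beside shares of all probe sets of 18.3% by age (9.55% higher, 8.8% lower) and 1.52% by diet. Between old Chlorella and young control the share was 15.2% (8.32% higher, 6.87% lower). For 27 other immediate early and AP-1 probe sets with an age difference, 13 lay above 0 and 14 below, with a median of -0.03 (log2). Ier2, an immediate early gene product of the nucleus, was the 1 probe set past 2-fold, at -1.09 by age, with signals of 1537, 720.9 and 656.8 on young control, old control and old Chlorella. Its direction held under all 5 scalings. By diet 1 of 27 passed 2-fold, the orphan nuclear receptor Nr4a2 on 1450750_a_at, at 1.17, with low signals of 33.1, 49.6 and 111.1. Another Nr4a2 probe set, 1450749_a_at, has a ratio on young control alone and signals of 99.2, 163.8 and 38.6, so its signal difference by diet was -2.09 and the probe sets of this gene disagree in direction. Against young control, 1450750_a_at of Nr4a2 was higher in old Chlorella by 1.75 (-1.36 by the signals of 1450749_a_at). Ier2 and Socs3 (1455899_x_at), an inhibitor of cytokine signalling, were lower, at -1.23 and -1.50. The other Socs3 probe set with ratios was at -0.55, under 2-fold. A further Socs3 probe set, without ratios, had log2 signals of 7.42 on young control and 7.57 on old Chlorella. The diet median of this list was -0.05, and it turned to 0.12 and 0.24 with either bacterial control at 0, where the median of all probe sets moved to 0.17 and 0.293. With the poly-A controls at 0, 11 of the 27 passed 2-fold by age, all lower, where 42.6% of all 16667 probe sets were lower by that much.

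The p53 pathway list had 16 probe sets of 8 genes with an age difference, and 13 of them lay above 0. The list median was 0.67 (log2), opposite in sign to Cdkn1a, also a p53 target, at -1.45. Several of the 16 read Sesn1 or Ccng1, so the values are not independent. Mdm2 (0.10 and 0.18) and Perp (-0.09) lay near 0, and Aen (-0.34 and -0.82) below it. At least 2-fold higher were Ccng1 (1450016_at), the gene of cyclin G1, at 1.03, the stress-induced Sesn1 (1444376_at) at 1.14 and the death receptor Fas at 1.04. Signals on young control, old control and old Chlorella were 1667, 3398 and 3041 for Ccng1 and 848.3, 1750 and 1842 for Fas. Those of Sesn1 on 1444376_at were low, at 35.5, 78.2 and 69.3. The other Sesn1 probe sets with ratios had age differences of 0.62, 0.77 and 0.91, under 2-fold. Ccng1 on 1450016_at, Sesn1 on 1444376_at and Fas stayed positive under all 5 scalings but went down to 0.28, 0.39 and 0.29. With the poly-A controls at 0, the list median was -0.08 and 7 of 16 remained above 0. By diet, none of 17 passed 2-fold and the median was 0.03. In old Chlorella against young control, 2 of 17 passed, Fas (1.12) and Ccng1 on 1450017_at (1.02), where 8.32% of all probe sets were higher by as much.

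The G1 control list, which holds the other D-type cyclins, the cyclin-dependent kinases and their inhibitors, had no probe set past 2-fold by age (of 19) or by diet (of 18), with medians of -0.18 and -0.15. The age median turned to 0.02 under either quantile normalization, and the diet median to 0.02 and 0.14 with the hybridization and poly-A controls at 0. Only Ccne2, the gene of cyclin E2, passed in old Chlorella against young control, at 1.20. In the Myc list, 20 probe sets had an age difference, with 2 higher and 2 lower by 2-fold and a median of -0.32. The lower ones read nucleolin, Ncl, at -1.61 and -1.57, and the higher ones nucleophosmin, Npm1, at 1.06 and 1.04. The transcripts of these 2 nucleolar proteins thus differed in opposite directions. A further Ncl probe set with an age difference was at -0.42. The Ncl values of -1.61 and -1.57 stayed past 2-fold under all 5 scalings, whereas those of Npm1 kept their sign but went down to 0.30 and 0.29. Ncl on 1415771_at had signals of 2670, 898.2 and 950.3 and Npm1 on 1415839_a_at 5998, 12473 and 12037, in the order young control, old control and old Chlorella. Neither list differed by 2-fold in any probe set between the old arrays.

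The list of the ATF and integrated stress response had 4 of 10 probe sets past 2-fold by age, all with less signal on old control (8.8% of all probe sets were lower by as much), and a median of -0.56. Both probe sets of Cebpb, a leucine zipper factor of liver, were among them, at -2.41 (1427844_a_at) and -1.25 (1418901_at). The others were Ppp1r15a (Gadd34), which restores translation after stress, at -1.36, and Chac1, a glutathione-degrading enzyme, at -1.04. Signals of 1427844_a_at were 1672 on young control, 315.4 on old control and 560.5 on old Chlorella, and those of Ppp1r15a were 655.7, 254.8 and 396.3. Old control was the lowest array for both, as for Jun, but their diet differences of 0.83 and 0.64 stayed under 2-fold. Cebpb on 1418901_at was also lowest on old control, with a diet difference of 0.47. Chac1 was instead lowest on old Chlorella, with signals of 316.3, 154.0 and 118.3 and a diet difference of -0.38. All 4 age differences kept their sign under the 5 scalings. In old Chlorella against young control, 2 of 10 were lower by 2-fold, Cebpb on 1427844_a_at (-1.58) and Chac1 (-1.42).

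**Figure D4:**
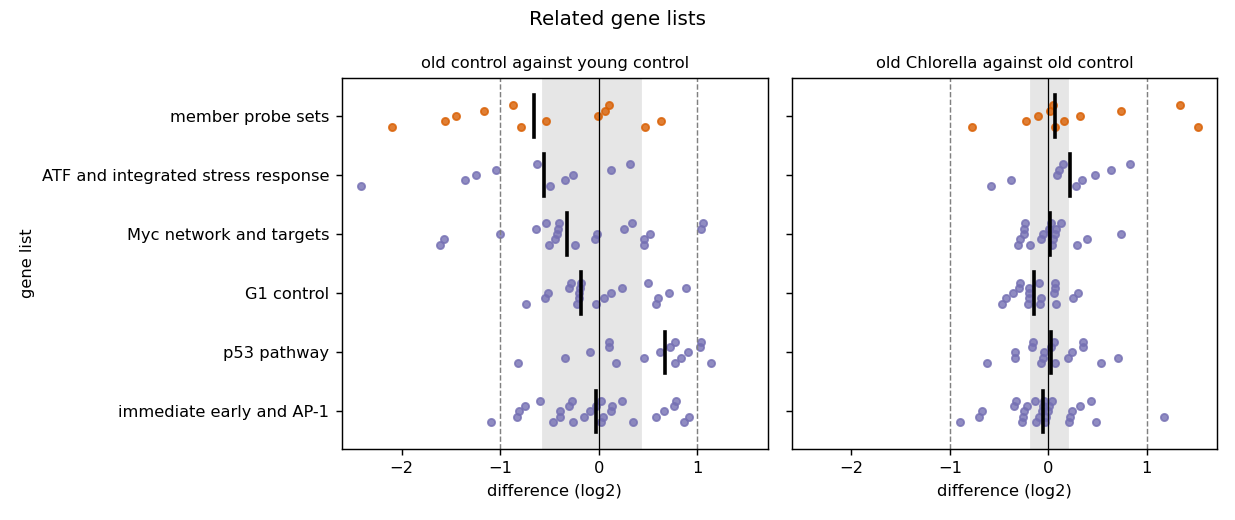
Log2 difference (x axis) of single probe sets (points) of the 5 related gene lists and of the members (y axis), by age (left) and diet (right); black bars are medians, the grey band is the middle 50% of all probe sets and dashed lines mark 2-fold. The p53 list has its age median at 0.67 and the members at -0.66.

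Some markers of neutrophils and B cells also differed by age on these arrays. Of the 4 neutrophil markers, S100a8 and S100a9 had ratios, with age differences of 3.15 and 2.85 (log2), while Elane and Ltf had none. The summed signal of the 4 probe sets was 835 on young control, 6347 on old control and 10226 on old Chlorella. By diet S100a8 and S100a9 differed by 0.66 and 0.70. Of 4 B cell probe sets with an age difference, 3 passed 2-fold as higher on old control, and the summed signal of the 13 probe sets of this list was 2953, 9957 and 8790 in the order used above. No Kupffer cell, stellate cell, T cell or erythroid marker with a ratio passed 2-fold in any comparison. Of the erythroid markers only Alas2 had ratios, with differences of 0.64 by age and -0.77 by diet. Markers of bile duct cells had summed signals of 411, 383 and 432, with an age difference for only 1 of 7 probe sets. It read Sox9 (1451538_at) and was past 2-fold as higher on old control, at 1.09 (log2). This value went down to 0.34 under the other scalings. Its signals were low, at 70.7, 150.6 and 42.3, and it has no ratio on old Chlorella. Those of hepatocytes summed to 515817, 656355 and 620746, but single markers differed by 2-fold in both directions. Ass1 (1459937_at) differed by 2.26 by age and -1.24 by diet, with signals of 101.4, 485.7 and 206.1, low beside the other hepatocyte markers. Glul (1426235_a_at) differed by -1.19 by age, and Tat by -1.51 in old Chlorella against young control. The sinusoidal endothelium markers summed to 8479, 14697 and 13251, which Clec4g carried (1.15 by age), while Stab2 (-0.75) and Lyve1 on 1429379_at (-0.81) were lower and the median of the 4 was -0.37. The part of these cells in the differences of Jun, Cdkn1a, Ccnd1 and Egr1 was not tested.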

How the data were processed

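Liver RNA of 3 groups, 6 mice pooled for each, was measured on 1 array per group. The authors deposited a table of log2 ratios (normalized expression of an array over the median of all samples, per the file header) and a table of log2 signals. For Cdkn1a on 1424638_at the 3 ratios were 1.290, -0.160 and 0.160, none of them 0. The reference was thus not the median of these 3 arrays alone, and which samples it covered was not identified. It cancels in differences between arrays. The submitters' processing notes list MAS5. Its version, its scaling target and the reason for empty cells were not given in the sources used here. By its name, the column titled Old was read as old control, since the Chlorella column has its own title, and 0 columns of values were left unused. Neither table gives read depth, and precision is limited by 1 array per group.

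Differences of deposited log2 ratios were taken where both arrays had one, without the 58 manufacturer's controls, and counted at 2-fold. No p-value was computed. Linear signals were taken back from the log2 signals. Gene names came from the array annotation, which gives 1 symbol for 17502 of the 19824 probe sets, several for 546 and none for 1776; Bax, Trp53, Gdf15, Ctgf, Cyr61 and Hbb-bt were not analysed here. Members, lists and alternatives were chosen with earlier results of these data known. All member probe sets are named, and from each list up to 6 probe sets per comparison that passed 2-fold. Other scalings, folds, a filter on signals under the array median, and gene means were tried as planned. Quantile normalization of signals and log2(signal + 50) were added after seeing the data; the latter replaced a planned pseudocount for linear values. Steps were tested on simulated data. Python 3.11.15, numpy 2.4.6, pandas 2.3.3 and matplotlib 3.10.9 were used.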

Additional observations from a re-analysis of the deposited data

How the results depend on the processing

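The main counts of members past 2-fold were 4 by age, 2 by diet and 4 for old Chlorella against young control. By age the count became 7 with the poly-A controls at 0 (44.7%), 7 at 1.5-fold (43.8% of all probe sets), 1 at 3-fold (4.39%) and 2 with the probe sets of a gene averaged. By diet it became 4 with quantile normalized ratios (5.2%), 4 at 1.5-fold (8.65%), 0 at 3-fold (0.188%) and 1 gene after averaging. It was also 4 with signals of all 15 probe sets, for which no share of all probe sets was computed. For old Chlorella against young control it became 1 with quantile normalized ratios (9.83%), 8 at 1.5-fold (40.7%) and 0 at 3-fold (2.99%). The other settings, log2(signal + 50) and the filter on low signals included, stayed within 1.5 times of these counts. Of 208 single member values under another scaling or pseudocount, 166 kept their sign and their side of 2-fold and 42 did not, and 0 of those past 2-fold in the deposited ratios changed sign. The cause of these moves was not tested. No paired analysis was possible because each group has 1 array. Without replicates none of these values has an error of its own.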
